A study of Mus musculus with 8 samples.

Results

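The type I interferon antiviral response was followed in RNA of cells sorted from healing mouse skin, through 39 genes that interferon is known to induce or that carry its signal. The genes were taken by symbol from the authors' table of all genes. All 39 were found among its 43346 genes, and all 39 passed the filter on low values (at least 1 TPM in at least 2 libraries), as did 15062 genes in all. TPM are transcript levels scaled to transcript length and to a fixed sum per library, so they compare genes and libraries but keep no record of sequencing depth, which is unknown here.

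The cells came from wounds of Sm22-Cre;tdTomato mice of mixed background at 12, 15, 21 and 26 days post wounding, and every group shares that genotype. In this strain the Sm22 promoter, active in contractile cells such as myofibroblasts, smooth muscle and pericytes, drives the Cre recombinase that switches on the red protein tdTomato, and a cell once switched on stays red. Viable tdTomato-high cells were sorted and made into libraries by SMART-seq2, a method for full-length cDNA from small inputs, 2 per day and 8 in all. No unwounded skin, cells treated with interferon or cells outside the tdTomato-high gate were analysed here, so each day is compared with another day. The sources used here do not give the age, sex or number of the mice. Whether a day's libraries come from different mice is also unstated, so p-values measure only the spread between these libraries.

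Type I interferons, the alpha and beta families and their relatives, are secreted when sensors such as RIG-I, MDA5 and cGAS meet foreign or misplaced nucleic acid. They bind the receptor pair IFNAR1 and IFNAR2, whose kinases JAK1 and TYK2 phosphorylate STAT proteins, which join IRF9 in the complex ISGF3. ISGF3 binds the interferon-stimulated response element in promoters and raises genes that block viruses, among them its own subunits and IRF7, the factor that amplifies interferon production. In skin injury, plasmacytoid dendritic cells are known as an early source of type I interferon.

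Promoter sequences of 6 members are shown because they hold the core of that element as a sequence match. The search was for GAAA, any 2 bases and GAAA again, on either strand (TTTC, any 2 bases, TTTC on the other), in the RefSeq windows of GRCm38.p6 that reach from 250 bases before to 50 bases after each gene start. Capitals mark the matches, which overlap in Isg15, Oas1a and Bst2. The 250 bases before the start are given for 4 genes, 5′ to 3′ on the strand of the gene.
Isg15, chr4:156200819-156201068, minus strand: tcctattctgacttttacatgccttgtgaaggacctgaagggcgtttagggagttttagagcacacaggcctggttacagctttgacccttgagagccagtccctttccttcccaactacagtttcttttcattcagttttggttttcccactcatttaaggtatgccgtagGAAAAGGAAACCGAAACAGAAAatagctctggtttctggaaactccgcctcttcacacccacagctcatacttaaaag
Oas1a, chr5:120907526-120907775, minus strand: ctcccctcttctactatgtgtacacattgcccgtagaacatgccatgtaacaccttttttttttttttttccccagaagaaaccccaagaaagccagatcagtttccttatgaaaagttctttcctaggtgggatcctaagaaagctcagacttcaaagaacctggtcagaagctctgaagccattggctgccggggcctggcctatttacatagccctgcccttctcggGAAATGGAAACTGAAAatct
Ifit1, chr19:34640639-34640888, plus strand: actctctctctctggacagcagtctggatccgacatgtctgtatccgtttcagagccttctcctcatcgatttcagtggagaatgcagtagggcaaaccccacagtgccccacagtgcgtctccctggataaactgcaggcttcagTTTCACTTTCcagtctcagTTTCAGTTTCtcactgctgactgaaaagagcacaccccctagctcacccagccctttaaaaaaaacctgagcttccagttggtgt
Bst2, chr8:71537473-71537722, minus strand: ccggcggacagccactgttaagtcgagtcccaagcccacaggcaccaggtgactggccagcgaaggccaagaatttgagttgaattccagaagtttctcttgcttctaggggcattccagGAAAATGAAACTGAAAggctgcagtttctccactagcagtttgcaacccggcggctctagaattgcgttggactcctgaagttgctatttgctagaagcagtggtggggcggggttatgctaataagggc
For the RNA sensor gene Ddx58 (RIG-I) and the kinase gene Eif2ak2 (PKR), whose match lies just after the start, a stretch of 30 bases is given.
Ddx58, chr4:40239804-40239833, minus strand: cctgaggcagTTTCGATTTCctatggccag
Eif2ak2, chr17:78882535-78882564, minus strand: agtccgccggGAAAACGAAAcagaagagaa

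Of the 29 members with a window in the RefSeq table, 13 held the motif, or 44.8% (exact 95% binomial interval 26.4% to 64.3%), against 3.99% of the 27025 genes with a window. With 1 to 3 bases allowed between the blocks, 20 of the 29 held it (69.0%, against 9.91% of genes). The first match of Isg15 begins 78 bases before the start, that of Bst2 130 bases, that of Ifit1 104 bases and that of Oas1a 20 bases. The interval covers counting error over genes only, a match is not a measured binding site, and binding was not measured here. Members without a match in the window included Irf7, Irf9, Oasl1, Oasl2 and Ifi44.

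Collagen and contractile transcripts were found in every library, and so were transcripts of leukocytes. The collagen gene Col1a1 had 14131 to 36951 TPM and the smooth muscle actin gene Acta2 292 to 1609 TPM. Tagln, the Sm22 gene itself, had 64.95 to 254 TPM. The contractile gene Cnn1 had only 0.41 to 1.86 TPM on days 21 and 26, and the macrophage gene Lyz2 had 394 to 3163 TPM. Between 13135 and 14147 genes reached 1 TPM per library. Xist, which coats the inactive X chromosome of female cells, had at most 0.01 TPM on days 12 and 26, 30.7 and 5.54 TPM on day 15, and 4.78 and 27.5 TPM on day 21. Where a day with Xist is compared with one almost without it, sex and day cannot be told apart, and that holds for all comparisons here except day 12 with day 26 and day 15 with day 21. Libraries are called by the number of the authors' value column, and paired values always run in that order, libraries 2 and 3 on days 12 and 21, 1 and 3 on day 15, and 1 and 2 on day 26. These numbers do not follow the replicate numbers of the labels.

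Library 1 of day 15 stood apart for these genes. It was lower than both libraries of day 12 and than library 3 of the same day in 34 of the 39 members. In 30 of those 34 it was still above all 4 libraries of days 21 and 26. The shares of all tested genes with these orders were not computed. Against library 3 alone it was lower in 36 members, and in 27.4% of all tested genes. At least a 2-fold difference on the log2(TPM + 1) scale, with library 1 below library 3, was found for 16 members, against 1.85% of all tested genes. The median difference was -0.80 (log2) for the members and 0.20 for all tested genes. The other days were closer, with a median difference of -0.11 on day 12, -0.18 on day 21 and -0.47 on day 26. On day 26 library 1 was the lower in 34 members, against 57.8% of all tested genes. Library 1 of day 15 was also the library with the most Xist, whose part in this was not tested. For steps that use day 15, the counts of members that passed and the members' medians are given with and without library 1.

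**Figure D1:**
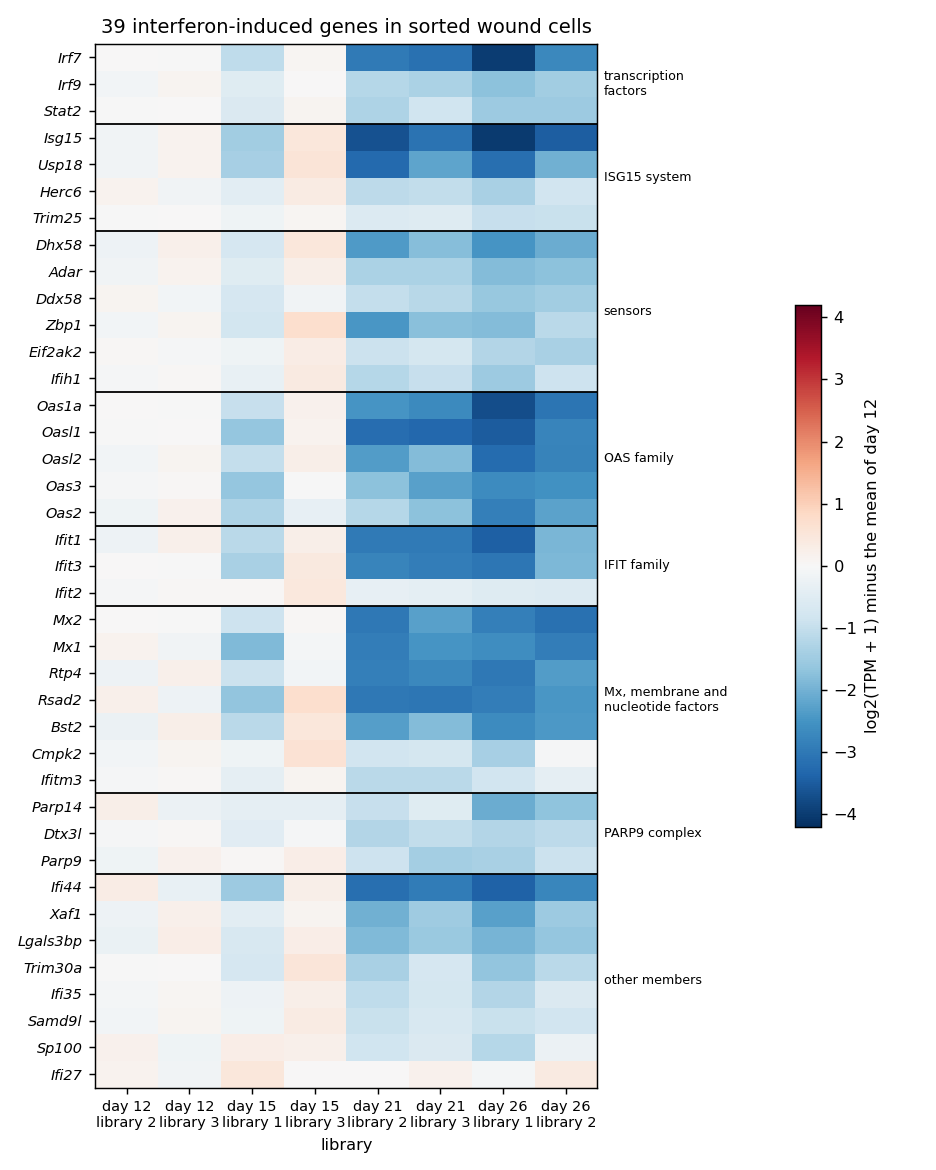
Level of the 39 genes (rows, grouped by role) in the 8 libraries (columns), as log2(TPM + 1) minus the mean of day 12, with blue for lower and red for higher. Library 1 of day 15 is lower than library 3 for 36 of the 39 genes, against 27.4% of all tested genes. Both libraries of day 26 are below both of day 12 for 37, against 43.5% of all tested genes.

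The antiviral genes were high at day 12, still high in library 3 of day 15, and low at days 21 and 26. Over the whole span from day 12 to day 26, 32 of the 39 fell and none rose, where 11.8% of the 15062 tested genes fell and 5.26% rose (limma with a trend, Benjamini-Hochberg adjusted p under 0.05). The median log2 change of the members was -1.80 and that of all tested genes -0.20. The 7 that did not pass were Zbp1, Herc6, Ifitm3, Ifit2, Sp100, Cmpk2 and Ifi27, and Ifi27 was the member with a positive change. In 37 members both libraries of day 12 lay above both of day 26, which held for 43.5% of all tested genes. The F test over the 4 days passed for 32 members, against 12.4% of all tested genes, and for 34 without library 1 of day 15.

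In bulk RNA of this kind, fewer cells with a transcript and less transcript per cell cannot be told apart. The count of 32 was 19 without library 2 of day 12, and it ranged from 23 to 34 when each of the other libraries was left out in turn. Passed in all 8 of these fits were 18 members, Adar, Bst2, Ddx58, Dhx58, Irf7, Irf9, Isg15, Lgals3bp, Mx2, Oas1a, Oas2, Oasl1, Oasl2, Parp14, Rtp4, Stat2, Trim25 and Xaf1. Median-ratio scaling and quantile normalization, in that order, moved the median change of all genes from -0.20 to -0.03 and -0.01 and the split of called genes from 792 rose and 1770 fell to 1150 and 1167, and 1162 and 1215. Under these scalings 28 and 27 members fell and the members' median was -1.62 in both. In all 17 fits run 38 members were lower on day 26. In the main fit 65.8% of all tested genes were lower.

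**Figure D2:**
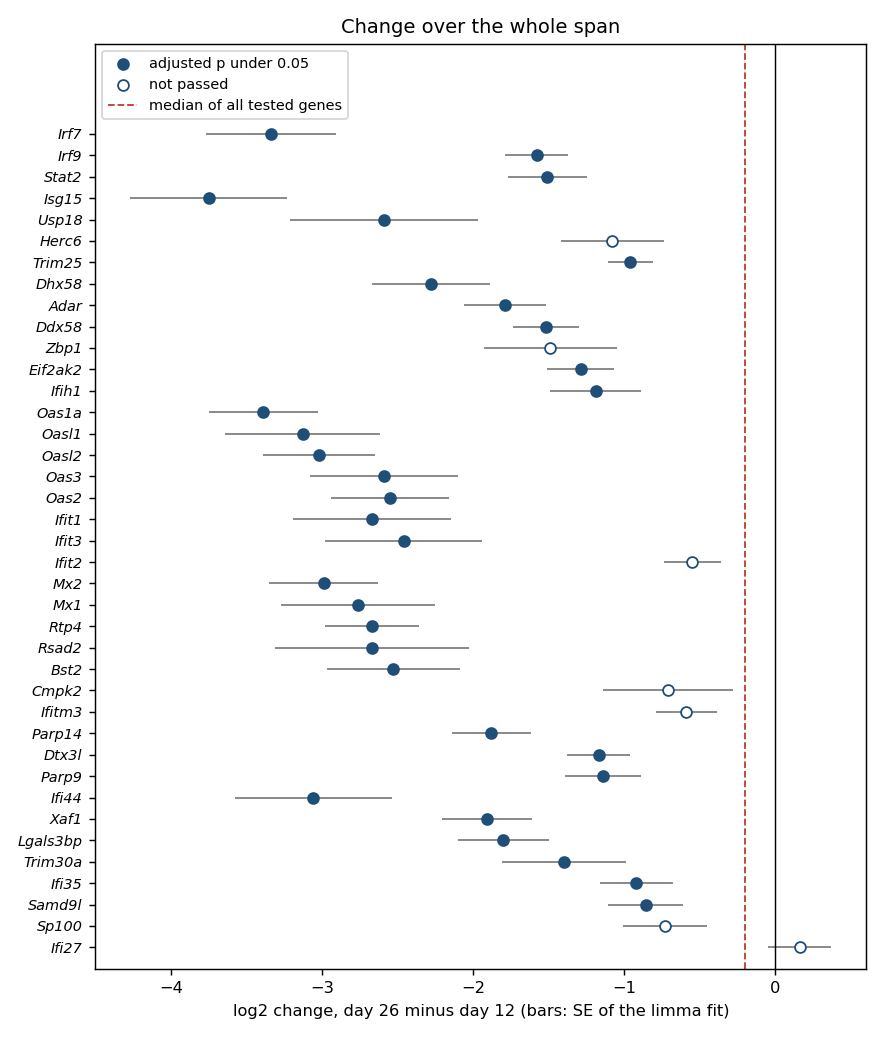
Log2 change from day 12 to day 26 (x axis, bars show the SE of the limma fit) for each of the 39 genes (y axis, ordered by role). Filled points passed an adjusted p of 0.05, and values run from -3.75 for Isg15 to 0.16 for Ifi27, with the dashed line at the median of all tested genes, -0.20.

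The transcription factors that carry or amplify the signal all fell from day 12 to day 26. Irf7, the amplifier of interferon production, had 200.4 and 198 TPM at day 12, 94.4 and 209.9 at day 15, 24.7 and 21.99 at day 21, and 11.6 and 29.8 at day 26 (log2 change -3.34 with SE 0.43, adjusted p = 0.00175). Its early libraries lay far above its late ones, and library 1 of day 15 sat between them. Irf9, the DNA-binding subunit of ISGF3, had 59.2 and 70.8 TPM at day 12, 44.97 and 65.7 at day 15, 27.5 and 25.3 at day 21, and 19.1 and 23.1 at day 26 (log2 change -1.58 with SE 0.21, adjusted p = 0.00197). The values of Stat2, the STAT specific to this complex, were 29.7 and 30.2 TPM at day 12, 19.5 and 32.2 at day 15, 11.6 and 16.2 at day 21, and 9.85 and 9.8 at day 26 (log2 change -1.51 with SE 0.26, adjusted p = 0.005404). For both subunits the lowest library of days 12 and 15 was above the highest of days 21 and 26. Irf7 (ENSMUSG00000025498.10) lies on chromosome 7 from 141262706 to 141266481 on the minus strand, where it overlaps Phrf1 on the other strand. Irf9 (ENSMUSG00000002325.10) lies on chromosome 14 from 55603571 to 55610030 on the plus strand, overlapping Rnf31, and Stat2 (ENSMUSG00000040033.11) lies on chromosome 10 from 128270559 to 128292849 on the plus strand. Strand is not kept by SMART-seq2, and reads of overlapping genes could be shared.

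Isg15, a ubiquitin-like protein that is joined to other proteins during the response, had the largest log2 change of the members on the log2(TPM + 1) scale. It had 313 and 381 TPM at day 12, 124 and 483 at day 15, 26.7 and 39.2 at day 21, and 20.2 and 30.6 at day 26 (log2 change -3.75 with SE 0.52, adjusted p = 0.00246). Even library 1 of day 15, the lowest of the early libraries, held more than all 4 late ones, and library 3 of that day was the highest of the 8. Usp18, the protease that removes ISG15 and also restrains the receptor, had 51.8 and 64.1 TPM at day 12, 21.1 and 84.3 at day 15, 5.05 and 11.8 at day 21, and 5.55 and 13.5 at day 26 (log2 change -2.59 with SE 0.62, adjusted p = 0.0234). Trim25, a ubiquitin ligase that activates RIG-I, had a narrow range, 49.8 and 49.8 TPM at day 12, 43.7 and 52.2 at day 15, 33.3 and 33.5 at day 21, and 24.7 and 25.7 at day 26 (log2 change -0.96 with SE 0.15, adjusted p = 0.0041). Herc6, the mouse ligase for ISG15, had 6.17 and 4.76 TPM at day 12, 3.77 and 7.21 at day 15, 1.97 and 2.12 at day 21, and 1.48 and 2.72 at day 26 and did not pass (adjusted p = 0.0626, log2 change -1.08). The call of Usp18 was lost with no filter. Isg15 (ENSMUSG00000035692.6) lies on chromosome 4 from 156199424 to 156200818 on the minus strand. Usp18 (ENSMUSG00000030107.9) lies on chromosome 6 from 121245906 to 121270917 on the plus strand.

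Of the sensors of foreign RNA and DNA, 5 of 6 fell. Dhx58, which encodes LGP2, the helper of the RIG-I family, had 24.9 and 33.4 TPM at day 12, 17.2 and 40.1 at day 15, 4.7 and 7.71 at day 21, and 4.36 and 6.11 at day 26 (log2 change -2.28 with SE 0.39, adjusted p = 0.00571). Ddx58, which encodes RIG-I, had 43.8 and 36.9 TPM at day 12, 24.1 and 35.9 at day 15, 19.6 and 17.4 at day 21, and 12.7 and 13.9 at day 26 (log2 change -1.52 with SE 0.22, adjusted p = 0.00258). Adar, the editor that marks cellular double-stranded RNA as self, had 16.3 and 20.1 TPM at day 12, 12.4 and 21.8 at day 15, 6.65 and 6.6 at day 21, and 4.35 and 4.73 at day 26 (log2 change -1.79 with SE 0.27, adjusted p = 0.00355). All 3 were above their late libraries in every early library. Ifih1 (MDA5) and Eif2ak2, the kinase that stops translation on double-stranded RNA, also fell, with log2 changes of -1.19 and -1.29. The call of Ifih1 was lost under quantile normalization, median-ratio scaling and no filter. Zbp1, a sensor of Z-form nucleic acid that can trigger cell death, went from 88.6 ± 10.7 to 31.8 ± 11 TPM (mean ± SD, n = 2) and missed the threshold at adjusted p = 0.0517. Dhx58 overlaps its antisense gene Dhx58os and Adar overlaps Chrnb2.

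The OAS family, which includes enzymes that make short oligoadenylates that trigger RNase L, fell in 5 of 5 members, with a median log2 change of -3.02. Oas1a had 53.6 and 52.7 TPM at day 12, 26.9 and 59.7 at day 15, 8.74 and 7.48 at day 21, and 3.12 and 5.5 at day 26 (log2 change -3.39 with SE 0.36, adjusted p = 0.000753). The values of Oasl2 were 121 and 146 TPM at day 12, 65.3 and 159 at day 15, 25.2 and 36.7 at day 21, and 13.3 and 18.01 at day 26 (log2 change -3.02 with SE 0.37, adjusted p = 0.00144), and those of Oasl1, known in mouse as a repressor of Irf7 translation, 18.03 and 18.7 TPM at day 12, 5.25 and 20.5 at day 15, 1.09 and 0.96 at day 21, and 0.72 and 1.84 at day 26 (log2 change -3.13 with SE 0.51, adjusted p = 0.00477). In all 3 genes every early library was above every late one. Oas2 and Oas3 were lower throughout, at 0.21 to 8.91 TPM and 0.04 to 5.65 TPM, and fell with log2 changes of -2.55 and -2.59. Oas1a (ENSMUSG00000052776.10) lies on chromosome 5 from 120896256 to 120907521 on the minus strand, near Oas2 and Oas3, and Oasl1 and Oasl2 lie next to each other on the same chromosome. The family has close copies in mouse, so the share of reads between them is uncertain.

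Of the IFIT genes, which encode binders of viral RNA and sit together on chromosome 19, Ifit1 and Ifit3 fell and Ifit2 did not pass. Ifit1 had 59.6 and 80.8 TPM at day 12, 30.8 and 82.99 at day 15, 8.08 and 7.94 at day 21, and 5.61 and 17.5 at day 26 (log2 change -2.67 with SE 0.52, adjusted p = 0.01004). Ifit3 had 184 and 183 TPM at day 12, 70.8 and 245 at day 15, 25.9 and 23.5 at day 21, and 21.5 and 49.03 at day 26 (log2 change -2.46 with SE 0.52, adjusted p = 0.0146). Both were higher in library 2 than in library 1 of day 26, by more than the libraries of day 21 differed. The call of Ifit3 was lost with no filter. Ifit2 had 19.5 and 21.03 TPM at day 12, 21.1 and 28.02 at day 15, 15.7 and 14.9 at day 21, and 13.8 and 13.2 at day 26 and did not pass (adjusted p = 0.08198, log2 change -0.55). Ifit1 (ENSMUSG00000034459.8) lies on chromosome 19 from 34640871 to 34650009 on the plus strand. Ifit3 has a near copy, Ifit3b, so the split of reads between them is uncertain.

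Among the Mx proteins and the membrane and nucleotide factors, 5 of 7 fell. Rtp4, which encodes a negative regulator of the response with antiviral activity, had 98.5 and 134 TPM at day 12, 61.2 and 107 at day 15, 14.7 and 16.8 at day 21, and 13.4 and 22.02 at day 26 (log2 change -2.67 with SE 0.31, adjusted p = 0.00105). Mx2, of a family of dynamin-like GTPases, had 17.6 and 17.01 TPM at day 12, 9 and 17.98 at day 15, 1.28 and 2.73 at day 21, and 1.52 and 1.1 at day 26 (log2 change -2.99 with SE 0.36, adjusted p = 0.00126), and the annotation used here lists it as a polymorphic pseudogene. Many laboratory strains are known to carry broken Mx genes. Bst2, the tetherin that holds budding viruses on the cell, was among the most abundant members, with 635 and 873 TPM at day 12, 338 and 1038 at day 15, 149 and 208 at day 21, and 118 and 139 at day 26 (log2 change -2.53 with SE 0.44, adjusted p = 0.00589). Each of these 3 genes was lower in every late library than in any early one. Mx1 and Rsad2, which encodes viperin, a maker of a chain-terminating nucleotide, were low and fell, from 9.61 ± 1.68 to 0.57 ± 0.2404 TPM and from 9.18 ± 1.97 to 0.61 ± 0.368 TPM. The call of Rsad2 was lost under quantile normalization and no filter. Cmpk2, the neighbour of Rsad2 and a nucleotide kinase, went from 9.31 ± 1.18 to 5.94 ± 4.22 TPM and did not pass (adjusted p = 0.288).

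Ifitm3, which blocks viral fusion with the membrane, was the most abundant member. It had 2729 and 2940.2 TPM at day 12, 2183 and 3072 at day 15, 1284 and 1289 at day 21, and 1622 and 2191 at day 26. Its lowest day was day 21 rather than day 26, and it did not pass between days 12 and 26 (log2 change -0.59 with SE 0.20, adjusted p = 0.0806), although it fell between days 12 and 21 (log2 change -1.14 with SE 0.20, adjusted p = 0.0117). Ifitm3 took so much of the summed level that sums over the members are given without it. Summed over the other 38, the level was 3416 and 4067 TPM at day 12, 2276 and 4576 at day 15, 1079 and 1289 at day 21, and 913 and 1282 at day 26. The mean of day 12 was 3.41-fold that of day 26, against 10-fold for the OAS family and 7.41-fold for the ISG15 system.

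The PARP9 complex fell in all 3 of its genes, with a median log2 change of -1.17. Parp14, an ADP-ribosyltransferase, had 25.5 and 17.5 TPM at day 12, 16.1 and 16.1 at day 15, 10.5 and 14.5 at day 21, and 4.22 and 5.9 at day 26 (log2 change -1.88 with SE 0.26, adjusted p = 0.00239). Its libraries of day 21 lay between those of day 15 and those of day 26. Dtx3l, the ubiquitin ligase that pairs with PARP9, had 21.95 and 23.4 TPM at day 12, 16.2 and 21.8 at day 15, 9.12 and 10.7 at day 21, and 9 and 10.02 at day 26 (log2 change -1.17 with SE 0.21, adjusted p = 0.00685), and Parp9 had 32.2 and 41.7 TPM at day 12, 37.6 and 44.6 at day 15, 19.6 and 13.1 at day 21, and 13.7 and 19.01 at day 26 (log2 change -1.14 with SE 0.25, adjusted p = 0.0162). The call of Parp9 was lost with no filter. In Dtx3l and Parp9 the libraries of days 21 and 26 overlapped. The 2 genes overlap on opposite strands of chromosome 16, 35938470 to 35972605 for Parp9 and 35926511 to 35939151 for Dtx3l, so part of their reads could be shared.

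Of the other 8 members, 6 fell. Ifi44, an induced cytoplasmic protein, had 35.1 and 22.5 TPM at day 12, 9.11 and 33.7 at day 15, 2.22 and 2.79 at day 21, and 1.77 and 3.41 at day 26 (log2 change -3.06 with SE 0.52, adjusted p = 0.00556). Xaf1, which encodes a promoter of apoptosis, had 102 and 138 TPM at day 12, 86.7 and 127 at day 15, 28.2 and 41.04 at day 21, and 23.4 and 40.3 at day 26 (log2 change -1.91 with SE 0.30, adjusted p = 0.00428). Lgals3bp, a secreted glycoprotein that binds galectin-3, had 549.8 and 796 TPM at day 12, 416 and 802 at day 15, 182 and 222 at day 21, and 169 and 212 at day 26 (log2 change -1.80 with SE 0.30, adjusted p = 0.00517). In these 3 genes no late library reached an early one. Trim30a, Ifi35 and Samd9l fell with log2 changes between -1.40 and -0.86. These 3 calls were lost under quantile normalization, median-ratio scaling and no filter, and with 1 library left out they held in 2, 5 and 2 of 8 fits. Sp100, a nuclear body protein, did not pass (adjusted p = 0.115). Ifi27, a small membrane protein, stood apart, with 323 and 267 TPM at day 12, 410.1 and 295 at day 15, 295 and 330.1 at day 21, and 278 and 386 at day 26, days that overlapped and no call in any comparison (adjusted p = 0.652, log2 change 0.16 between days 12 and 26).

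**Figure D3:**
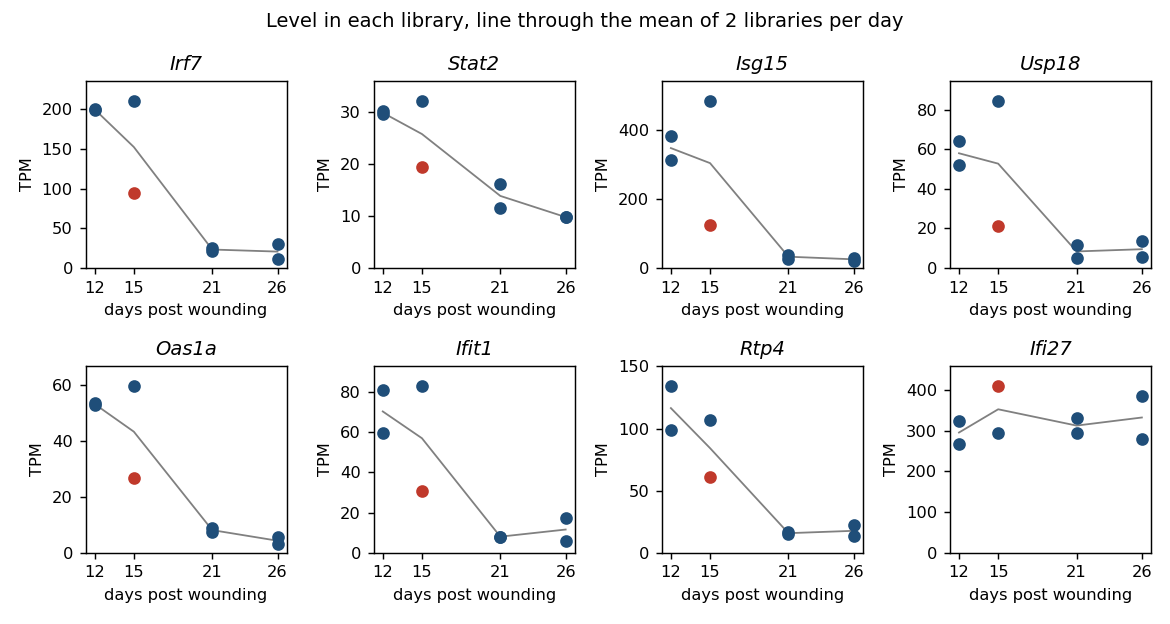
TPM of 8 members in each library (points, red for library 1 of day 15) against days post wounding, with a line through the means of the 2 libraries per day and y axes that start at 0. In 7 of the 8 genes the libraries of days 21 and 26 lie below every library of days 12 and 15, and Ifi27 stays between 267 and 410.1 TPM.

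Of the steps between neighbouring days, that from day 15 to day 21 had the largest median change of the members. From day 12 to day 15 no member passed, and 0 had an unadjusted p under 0.05, against 8.74% of all tested genes, of which 0.159% passed in either direction. The members' median log2 change in that step was -0.25 and that of all tested genes 0.02, and with 1 library of day 15 left out the median was 0.25 (without library 1) or -0.71 (without library 3). From day 15 to day 21 all 39 were lower, against 59.6% of all tested genes, and 38 were lower without library 1 of day 15. With all libraries 36 members had an unadjusted p under 0.05, against 18.6% of all tested genes. Of these, 7 passed after adjustment, Rtp4, Irf7, Isg15, Mx2, Oas1a, Parp9 and Xaf1, where 0.91% of all tested genes fell. The median of the members was -1.20 and of all tested genes -0.10, and without library 1 of day 15 they were -1.58 and 0.01. From day 21 to day 26 no member passed, 6 had an unadjusted p under 0.05, against 18.7% of all tested genes, and 0.319% of those passed in either direction, with a median of -0.11 for the members and -0.09 for all.

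The count for day 15 to day 21 was not stable. Without library 1 of day 15 it was 15, without library 3 of that day 0, without either library of day 21 also 0, without either library of day 12 it was 1, and without either library of day 26 it was 16. Both libraries of day 15 lay above both of day 21 in 36 members, which held for 30.3% of all tested genes. A contrast of day 21 with day 12, added after the spread between the libraries of day 15 had been seen, avoids that day, and in it 30 members fell, where 6.69% of all tested genes fell. Its members' median was -1.46 and that of all tested genes -0.07. In 38 members both libraries of day 12 were above both of day 21, as in 34.6% of all tested genes. The count of 30 was 5 without either library of day 21, 8 without library 2 of day 12 and 7 without library 3. Without the 2 libraries with the most Xist, 1 on day 15 and 1 on day 21, it was 12, and that for day 15 to day 21 was 0. These contrasts share libraries with each other and are not independent.

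**Figure D4:**
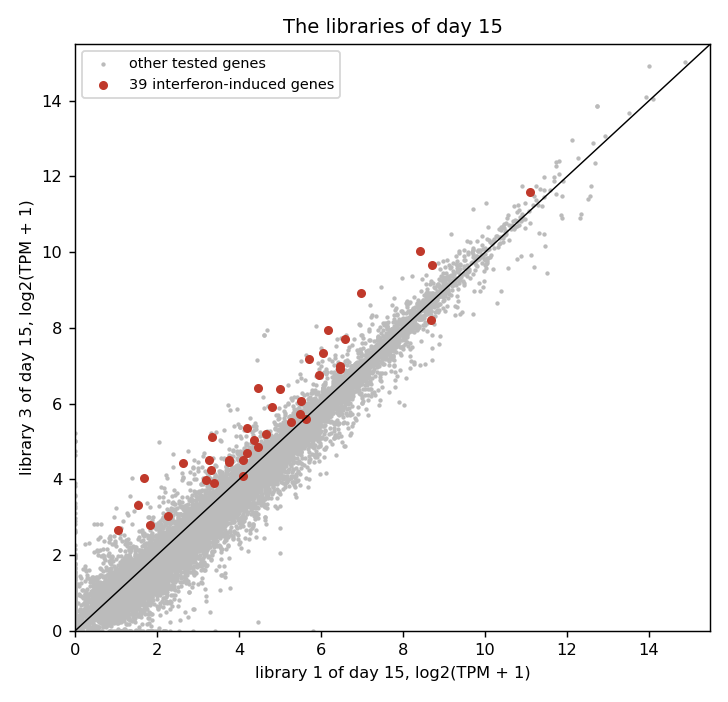
Level of each tested gene in library 1 (x axis) and library 3 (y axis) of day 15, as log2(TPM + 1), with the line of equal values. The 39 interferon-induced genes (red) lie above the line in 36 cases, and 16 are at least 2-fold lower in library 1. Of all tested genes 27.4% lie above the line and 1.85% are at least 2-fold lower in library 1.

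Transcripts of the interferons themselves were nearly undetected. Of 8 tested receptor and kinase genes of the pathway, 0 fell from day 12 to day 26, where 11.8% of all tested genes fell. For so few genes that count is near the share of all genes. Of the 19 gene entries of type I interferons, 15 were listed at 0 in all 8 libraries, Ifnb1 included, and their summed level reached at most 1.5 TPM, on day 21. The only 1 high enough to be tested was Ifnz, which did not pass. Ifng and the type III genes Ifnl2 and Ifnl3 reached at most 0.13 TPM. The receptor gene Ifnar1 had 41.99 and 43.7 TPM at day 12, 51.9 and 42.98 at day 15, 54.2 and 42.2 at day 21, and 46.02 and 44.1 at day 26, and its days overlapped (adjusted p = 0.812, log2 change 0.07 between days 12 and 26). Its partner Ifnar2 had 88.03 to 124 TPM (adjusted p = 0.856, log2 change -0.05), and Jak1 and Tyk2 had 48.7 to 60.1 TPM and 5.92 to 11.6 TPM and did not pass. Of the 8 tested receptor and kinase genes 1 passed, Ifngr1, a receptor of interferon gamma, which rose from 83.8 ± 2.42 to 144 ± 28.4 TPM (log2 change 0.76 with SE 0.17, adjusted p = 0.0174). Of all tested genes 5.26% rose from day 12 to day 26. The p-values that missed the threshold do not show that levels were equal.

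Of 11 STAT and IRF factors and negative regulators outside the members, 4 fell from day 12 to day 26 and none rose. The shares of all tested genes were 11.8% and 5.26%. Among those that fell were the myeloid factors Irf5 and Irf8 and the phosphatase gene Ptpn6 of blood cells, with log2 changes of -1.33, -1.34 and -1.96. Those that did not pass included Irf1, Irf2, Socs1 and Socs3. Irf3, the constitutive factor of interferon induction, also did not pass, with 53.2 to 82.4 TPM (adjusted p = 0.402, log2 change -0.24).

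Of 16 tested genes of interferon induction, 5 fell from day 12 to day 26 and none rose, against 11.8% and 5.26% of all tested genes. Those that fell were the endosomal receptors Tlr7 and Tlr8, the nucleases Trex1 and Rnaseh2b, and Samhd1, which depletes nucleotides. Trex1, which clears DNA from the cytosol, had 101 and 106 TPM at day 12, 43.7 and 109 at day 15, 38.9 and 35.2 at day 21, and 27.5 and 30.7 at day 26 (log2 change -1.80 with SE 0.34, adjusted p = 0.00893). It was lower in library 1 than in library 3 of day 15. The adaptor and kinase genes Mavs, Tmem173 (STING), Tbk1, Myd88 and Ticam1 and the DNA sensor gene Mb21d1 (cGAS) did not pass, with Mavs at 17.2 to 24.7 TPM.

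Of 61 further interferon-induced genes outside the members, 35 fell from day 12 to day 26, 1 rose and 25 did not pass. Of all tested genes 11.8% fell and 5.26% rose. The 4 with the smallest adjusted p were Slfn9 (adjusted p = 0.00253, log2 change -2.10), Apol9b (adjusted p = 0.00257, log2 change -2.81), the GTPase gene Irgm1 (adjusted p = 0.00361, log2 change -1.81) and Oas1g (adjusted p = 0.00455, log2 change -3.05). The gene that rose was Ifitm1, a neighbour and relative of Ifitm3, from 174 ± 62.7 to 481 ± 214 TPM (log2 change 1.43 with SE 0.42, adjusted p = 0.0466). Among those that did not pass were the guanylate-binding protein gene Gbp2 (22.96 to 61.7 TPM), the immunoproteasome gene Psmb8 (97.4 to 279 TPM) and the chemokine gene Cxcl9 (4.46 to 55.8 TPM). Cxcl10, the chemokine that draws T cells, had 122 and 89.8 TPM at day 12, 57.8 and 262 at day 15, 26.9 and 13.9 at day 21, and 37.2 and 17.98 at day 26 and did not pass (adjusted p = 0.0651, log2 change -1.97). Iigp1, an interferon-inducible GTPase, fell from day 15 to day 21 (adjusted p = 0.00629, log2 change -2.19; -2.30 and 0.0158 without library 1 of day 15) and rose from day 21 to day 26 (adjusted p = 0.0447, log2 change 1.37). Between days 12 and 26 it did not pass (adjusted p = 0.1998, log2 change -0.40).

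Markers of other cells moved over the same days. Of 20 macrophage and leukocyte markers 18 fell from day 12 to day 26, where 11.8% of all tested genes fell. The most abundant, Lyz2, had 3163 and 2099.6 TPM at day 12 and 394 and 744 at day 26. None of the 20 were at 0, with the pan-leukocyte gene Ptprc at 11.6 and 8.56 TPM at day 12, 3.02 and 5.88 at day 15, 4 and 6.09 at day 21, and 2.39 and 2.73 at day 26. Summed, these markers had 6996 and 4771 TPM at day 12, 2012 and 2870.5 at day 15, 1829.6 and 1779 at day 21, and 922 and 1649 at day 26. Their mean at day 12 was 4.58-fold that of day 26. Macrophages also express interferon-induced genes, and the part of these markers' cells in the fall of the members was not tested. From the mean of day 12 to library 3 of day 15 the marker sum went from 5883 to 2870.5 TPM, and the sum of the members without Ifitm3 went from 3741 to 4576 TPM. In library 1 of day 15 both sums were below their mean of day 12, at 2012 and 2276 TPM. From day 15 to day 21, 7 members fell and 0 of the 20 markers passed in limma, where 0.91% of all tested genes fell. Of the markers, 3 had an unadjusted p under 0.05, against 18.6% of all tested genes. In this step 12 of the 20 were lower, against 59.6% of all tested genes. Their median log2 change was -0.19 and that of all tested genes -0.10. Without library 1 of day 15 the medians were -0.53 and 0.01. There 15 markers were lower, against 7227 of 14877 tested genes. From day 12 to day 21, where 30 members fell, 10 of the 20 markers fell, against 6.69% of all tested genes. All 20 were lower, against 56.0% of all tested genes, with a median of -1.22. From day 12 to day 15, 0 markers passed and the median was -1.15. In that step 15 had an unadjusted p under 0.05, against 8.74% of all tested genes. Within day 15 the marker sum of library 3 was 1.43-fold that of library 1, and that of the members without Ifitm3 2.01-fold.

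**Figure D5:**
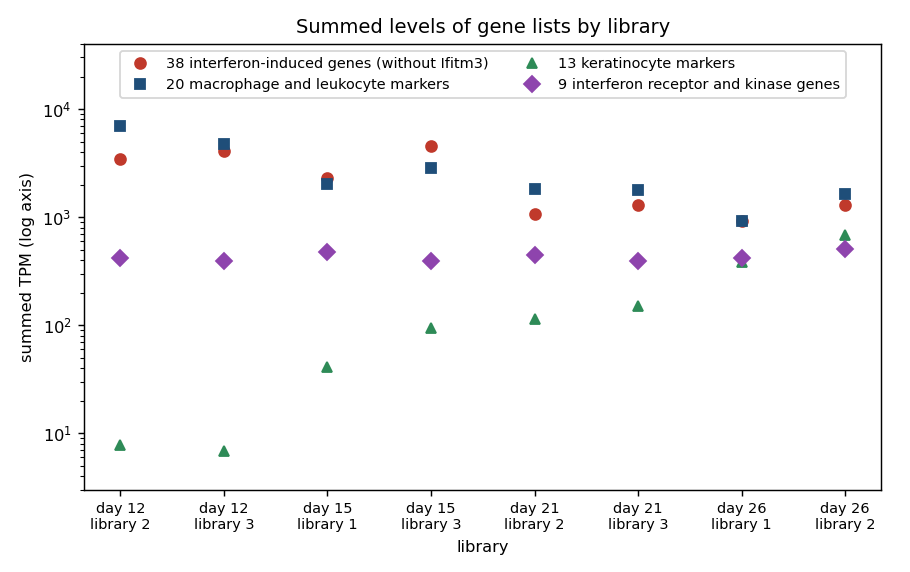
Summed TPM (log axis) per library of the 38 interferon-induced genes without Ifitm3, of 20 macrophage and leukocyte markers, of 13 keratinocyte markers and of 9 interferon receptor and kinase genes. The interferon-induced genes lie between 2276 and 4576 TPM on days 12 and 15 and between 913 and 1289 TPM on days 21 and 26, and the receptor and kinase genes lie between 394 and 509 TPM throughout.

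Keratinocyte markers summed to 7.73 and 6.77 TPM at day 12 and 40.7 and 92.99 at day 15. They summed to 113 and 151 TPM at day 21 and 381 and 682 at day 26. From day 12 to day 26 all 11 tested of the 13 rose, where 5.26% of all tested genes rose. Of 8 myofibroblast markers 6 fell between days 12 and 26, with a median log2 change of -1.60, where 11.8% of all tested genes fell. The sum of these 8 was 6897 and 7676 TPM at day 12, 6058 and 5588 at day 15, 3509 and 2801 at day 21, and 2969.6 and 3259 at day 26. From day 15 to day 21 all 8 were lower and 3 fell, against 59.6% and 0.91% of all tested genes. Their median log2 change was -0.99, and -0.89 with all 8 lower without library 1 of day 15. Markers of dendritic and plasmacytoid cells summed to 5.6 to 8.58 TPM, with the plasmacytoid gene Siglech at most 0.41 TPM, and lymphocyte markers to 2 to 7.96 TPM. Granulocyte markers ranged from 2.96 to 22.8 TPM. From day 12 to day 26 all 4 tested were lower and 1 fell, against 65.8% and 11.8% of all tested genes. Endothelial markers ranged from 83.1 to 211 TPM. From day 12 to day 26 none of these 8 passed in limma and 0 had an unadjusted p under 0.05, against 31.9% of all tested genes. From day 15 to day 21 none passed and 1 had such a p. Pericyte and smooth muscle markers had 2055 TPM in library 1 and 752 TPM in library 3 of day 15, the reverse of the members, and none of 8 passed between days 12 and 26, with 0 at an unadjusted p under 0.05. The part of these cells in the results was not tested.

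In the authors' deposited tables of gene clusters, 25 of the 39 members (64.1%) were among 4120 clustered genes. These 4120 genes make up 9.50% of the 43346 genes in the table of all genes, of which 15062 passed the filter on low values. All 39 members passed that filter, so the 2 shares are not over like sets. Cluster C1 held 15 members of its 1412 genes and C2 held 10 of 1244, and C3, C4 and C5 held none. The authors' deposited table of C1 gave Irf7 a fold of -9.2 (p = 0.00810) and Mx2 a fold of -7.9 (p = 0.00526), with a minus sign for levels lower at the later day. For Oas1a the authors' deposited table of C2 gave a fold of -10.2 (p = 0.00995) and for Stat2 -2.9 (p = 0.00920). The heading of that fold in C2 names day 26 over day 21, but 100% of its values lay within 0.1 of the fold of day 26 over day 12 computed from the means of TPM plus 1, and 10.5% within 0.1 of day 26 over day 21. The test behind the authors' p-values is not given in the sources used here.

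Set beside the promoter sequences shown above, the 13 members with the motif in their window had a median log2 change of -2.46 from day 12 to day 26, and 12 of them fell. The 16 members with a window and no match had a median of -1.38, and 12 fell. The 10 with no window in the table, among them Usp18, Rtp4 and Mx2, had a median of -2.42, and 8 fell. The first group ran from Isg15 at -3.75 to Ifitm3 at -0.59, and the second from Irf7 at -3.34 to Ifit2 at -0.55. The groups overlapped, and the difference between them was not tested.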

How the data were processed

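RNA of sorted tdTomato-high wound cells was measured in 8 libraries, 2 per day, with columns assigned to days by their names. The authors' table of all genes holds, per the file headers, a signal per gene and library. Its values were at least 1 and, minus 1, summed to 999999 to 1000001 per column, so this deposited signal was taken to be TPM plus 1. Quantification used RSEM 1.12.2 and mm10 per the submitters' processing notes, and no source used here gives the aligner or annotation. Per the file headers, the authors' 5 cluster tables hold a p-value and a fold per gene, and their 40 value columns were not used here. Values minus 1 were taken to log2(TPM + 1), a scale on which a change understates the fold of low genes. The limma trend method (3.58.1, R 4.3.3) was fitted over all 8 libraries with day as a factor (residual degrees of freedom 4, prior 4.76) and tested on simulated data. Contrasts were 2-sided and adjusted by Benjamini-Hochberg within each over 15062 genes. Rose and fell refer to an adjusted p under 0.05. TPM keep no depth, so no counting interval was possible. Positions are from GENCODE vM21 (GRCm38), promoter windows from RefSeq GRCm38.p6. The members and gene lists were chosen with earlier results of these data known. Values in every library are given for Irf7, Irf9, Stat2, Isg15, Usp18 and up to 3 further members of each role group by the F test. Values per library of Herc6, Ifit2, Ifitm3 and Ifi27 and of genes outside the members were chosen for printing after they had been seen, as was the contrast of day 21 with day 12. Alternatives varied the pseudocount, filter, scaling, trend, samples fitted and each library. 1 gene outside the members is not reported here.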

Additional observations from a re-analysis of the deposited data

How the results depend on the processing

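No paired analysis was possible because the value columns do not carry the replicate numbers of the labels, and no label ties the numbers they do carry to a shared animal, batch or day. The 32 members that fell between days 12 and 26 were 24 to 33 under the 8 other settings, all falling, and 19 to 34 with 1 library left out. Their median stayed between -1.97 and -1.64 with 1 library left out. Counts for the other comparisons moved more, and the cause was not tested. For members, the count from day 15 to day 21 (7) was 4 with a pseudocount of 0.1, 0 with no filter, 13 with at least 5 TPM, 4 with quantile normalization, 1 with median-ratio scaling, 0 with no trend, 0 without the 2 libraries with the most Xist and 0 to 16 with 1 library left out. The count from day 12 to day 21 (30) was 10 with no filter, 12 without the Xist pair and 5 to 31 with 1 library left out, and the F test count (32) was 14 with no filter and 17 to 34. No member passed from day 12 to 15 or from day 21 to 26 in any setting (0 to 0 with 1 library left out). The members' median without the Xist pair was 0.25 from day 12 to 15 (main -0.25) and -1.69 from day 15 to 21 (main -1.20). With 1 library left out it ranged from -0.71 to 0.25, from -1.58 to -0.84, from -0.42 to 0.03 (day 21 to 26) and from -1.64 to -1.29 (day 12 to 21). Over all genes, the count from day 12 to 15 (24) was 3 with no filter, 4 with quantile normalization, 4 with median-ratio scaling, 1 with no trend, 0 without the Xist pair and 0 to 53 with 1 library left out. From day 15 to 21 (211) it was 134 with a pseudocount of 0.1, 44 with no filter, 127 with median-ratio scaling, 51 with no trend, 0 without the Xist pair and 2 to 324. From day 21 to 26 (48) it was 15 with a pseudocount of 0.1, 10 with no filter, 28 with at least 5 TPM, 12 with no trend, 0 without the Xist pair and 0 to 77. From day 12 to 26 (2562) it was 1667 with no filter and 773 to 2551, and from day 12 to 21 (1555) 757 with no filter, 1024 with no trend, 133 without the Xist pair and 275 to 1792. The F test count (1866) was 781 with no filter, 462 without the Xist pair and 656 to 1849. The share of calls that fell moved from 64.9% to 51.6% and 52.8% (day 15 to 21), from 64.8% to 51.9% and 50.6% (day 12 to 21), from 68.8% to 53.3% and 59.1% (day 21 to 26) and from 45.8% to 75.0% and 75.0% (day 12 to 15) with quantile normalization and median-ratio scaling. Ifi27, which did not pass, had a log2 change of 0.16 with all libraries, -0.08 without library 2 of day 26 and 0.39 without library 1 of that day. The motif followed by C or T was in 37.9% of members with a window and 1.57% of genes, and the macrophage sum without Lyz2 and Cd68 was 4.38-fold higher on day 12 than on day 26. A day left with 1 library was assumed to vary like the others. The depth of the libraries is unknown.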
